A study of Rattus norvegicus with 12 samples.

Results

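MiR-191 and miR-425 are small RNAs cut from neighbouring hairpins of a single host transcript, and their levels were followed in rat dorsal root ganglia (DRG), which hold the cell bodies of sensory neurons. They are the assays mmu-miR-191 and mmu-miR-425, found by name, and make up 2 of the 154 miRs in the table of TaqMan cards. The pair was chosen with measured values known: miR-191 was picked on the difference between the injury models on these same arrays, so that difference is described below and not tested. The 12 arrays come from adult male Sprague-Dawley rats 23 days after surgery. In Sural-SNI, a spared nerve injury, the common peroneal and tibial branches of the sciatic nerve were tied and cut and the sural branch was spared. In Tibial-SNI the common peroneal and sural branches were cut and the tibial branch was spared, and in Sham the nerve was exposed with no branch cut. Each surgery has 4 arrays, a replicate 1 and a replicate 2 for each of the lumbar ganglia L3-DRG and L4-DRG. The labels do not say whether an L3-DRG and an L4-DRG of the same number came from the same rat or what else a number stands for, so p-values measure the spread between these arrays, part of which may be technical.

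A miR is made from a long primary transcript, from which the enzyme Drosha cuts a hairpin that Dicer trims to the mature strand. MiRs whose hairpins lie in the same transcript start out in equal numbers, and their mature levels can still part through unequal cutting, export and decay. The seed, bases 2 to 8 of the mature strand, pairs with target mRNAs, so miRs of a single transcript need not share targets. Both miRs lie within the gene Dalrd3, are made in many tissues, and are often used as reference miRs to normalize other miRs.

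The RefSeq sequences of the rat build GRCr8 are shown for the RNAs that the assays are taken to read. They show that the pair differs in its seeds, in capitals here. The methods of the study name miR-191a-5p as the target of the miR-191 assay. Its supplement prints that strand with a shorter run of A than RefSeq and with the same seed. The assay name of miR-425 carries no arm, and the 5p strand is shown.
rno-miR-191a-5p: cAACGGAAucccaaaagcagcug
rno-miR-425-5p: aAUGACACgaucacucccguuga
The strands are 23 nucleotides each, with 52.2% G and C in miR-191a-5p and 47.8% in miR-425-5p. Of the 693 rat mature miRs in RefSeq, 0 others share the seed of either. The hairpins, with these mature strands in capitals, show the shared origin.
miR-191 hairpin, GRCr8 chr8:118142627-118142717, plus strand: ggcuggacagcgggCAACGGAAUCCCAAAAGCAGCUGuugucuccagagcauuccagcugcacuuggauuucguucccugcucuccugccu
miR-425 hairpin, GRCr8 chr8:118143084-118143166, plus strand: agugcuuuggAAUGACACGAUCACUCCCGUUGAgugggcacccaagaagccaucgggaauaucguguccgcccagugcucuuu
The hairpins have 91 and 83 nucleotides, lie on the same strand and are 366 bases apart. Both are inside Dalrd3, a gene of 5074 bases at chr8:118142009-118147082 on the plus strand, where they start at bases 619 and 1076 of the gene. Whether these positions are exonic or intronic was not looked up here. On the opposite strand of the miR-191 hairpin RefSeq places another mature miR, rno-miR-191b, at chr8:118142682-118142702.

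Of the pair, miR-191 was read far earlier. Each assay gives a Ct, the number of PCR cycles needed before its dye crosses a set brightness, so a lower Ct stands for more RNA and 1 cycle for a factor of 2 at full efficiency. MiR-191 had a mean Ct of 22.9 over the 12 arrays, the fourth lowest of the 154 miRs, and that of miR-425 was 28.7, in place 66, where the median miR had 29.2. MiR-191 came out ahead on every array. The gap of 5.79 cycles would be a factor of 55.4 in RNA if the assays worked equally well. Their efficiencies were not measured here, so the gap itself is not a ratio of molecules, and only its differences between arrays are compared. The latest value of either was 29.7, where 40 cycles were run.

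In L3-DRG of Sham rats the Ct of miR-191 was 23.2 in replicate 1 and 23.4 in replicate 2, and in L4-DRG it was 22.6 and 23.0. In Sural-SNI it was 23.0 and 22.9 in L3-DRG and 22.6 and 22.5 in L4-DRG. In Tibial-SNI it was 23.2 and 22.8 in L3-DRG and 23.0 and 22.6 in L4-DRG. The 12 values of miR-191 thus lay within 1 cycle of each other, and the arrays of both numbers were mixed. MiR-425 was ordered differently. Its Ct was 29.5 in replicate 1 and 28.9 in replicate 2 of L3-DRG of Sham rats, and 29.1 and 28.0 in L4-DRG. In Sural-SNI it was 29.7 and 28.4 in L3-DRG and 28.5 and 27.4 in L4-DRG, and in Tibial-SNI 29.4 and 27.8 in L3-DRG and 29.3 and 28.2 in L4-DRG. In each of the 6 conditions replicate 2 was read earlier than replicate 1.

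**Figure D1:**
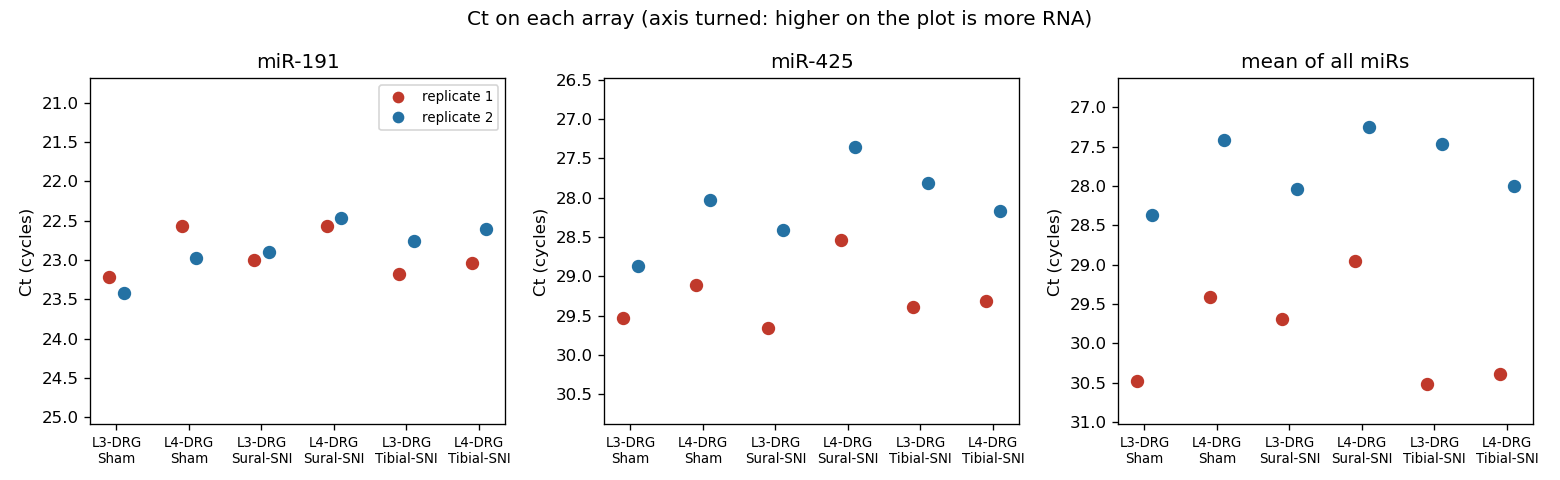
Ct in cycles on each of the 12 arrays for miR-191 (left), miR-425 (middle) and the mean of the 154 miRs (right), by DRG level and surgery, with replicate 1 in red and replicate 2 in blue; the axes are turned and span the same number of cycles. The colours are mixed for miR-191, while for miR-425 and for the mean of all miRs replicate 2 is above replicate 1 in every condition.

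The arrays of replicate 1 were later than those of replicate 2 by a median of 2.05 cycles over the 154 miRs, with quartiles of 1.15 and 2.91 and a range from −2.67 to 6.29. The shift was 0.07 cycles for miR-191, in place 11 from the lowest, and 1.15 for miR-425, in place 40. Members of the same host transcript thus shifted unequally between the numbers, and both shifted less than the median miR. The shift was weakly related to the mean Ct of a miR (r = 0.15 across the 154 miRs, which are not independent replicates). The 3 reference RNAs parted as well, with −0.86 for MammU6, 3.94 for snoRNA135 and 1.52 for U87.

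The ratio of the pair on an array, log2(miR-191/miR-425), is the Ct of miR-425 minus that of miR-191 and needs no reference RNA. In Sham it was 6.31 and 5.45 in L3-DRG (replicates 1 and 2) and 6.55 and 5.05 in L4-DRG. In Sural-SNI it was 6.66 and 5.52 in L3-DRG and 5.97 and 4.89 in L4-DRG. In Tibial-SNI it was 6.22 and 5.05 in L3-DRG and 6.28 and 5.57 in L4-DRG. Replicate 1 was above replicate 2 in all 6 conditions, and the lowest value of replicate 1, 5.97, was above the highest of replicate 2, 5.57.

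By surgery the mean log2 ratio was 5.84 ± 0.71 (SD, n = 4) in Sham, 5.76 ± 0.75 in Sural-SNI and 5.78 ± 0.59 in Tibial-SNI, so the groups lay closer together than the arrays within any of them. It was 5.87 ± 0.62 (SD, n = 6) in L3-DRG and 5.72 ± 0.67 in L4-DRG, again within the spread. By number it was 6.33 ± 0.24 (SD, n = 6) in replicate 1 and 5.25 ± 0.29 in replicate 2, a difference of 1.08 on the log2 scale or 2.11-fold. These differences carry no p, since the pair was chosen with results known. From L3-DRG to L4-DRG of the same surgery and number the log2 ratio fell in 3 of 6 pairs of arrays, with changes between −0.69 and 0.52.

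**Figure D2:**
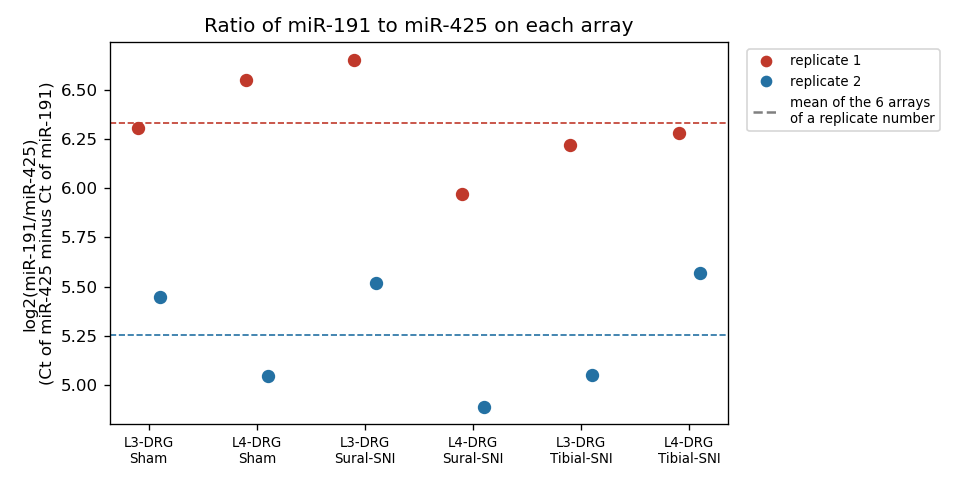
log2(miR-191/miR-425), the Ct of miR-425 minus that of miR-191, on each array by DRG level and surgery, with the mean of each replicate number as a dashed line (6.33 for replicate 1 in red, 5.25 for replicate 2 in blue). The ratio is split by replicate number in every condition, with no overlap, and not by surgery or DRG level.

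How closely the pair moved together was measured by the SD of the difference of their Ct. Over the 12 arrays it was 0.619 cycles, and miR-425 was in place 22 of the 153 other miRs as a partner of miR-191, while miR-191 was in place 48 as a partner of miR-425. The median partner had an SD of 1.23 cycles for miR-191 and 0.842 for miR-425. About the mean of each replicate number the SD fell to 0.270 cycles. There miR-425 was in place 6 for miR-191 and miR-191 in place 3 for miR-425, where the median partners had 0.575 and 0.568. Every partner was read on the same 12 arrays, so these places describe the arrays and carry no test.

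The partners closest to miR-191 over the 12 arrays were miR-150 (SD of the Ct difference 0.270 cycles), miR-383 (0.320), miR-196b (0.336), miR-342-3p (0.375) and miR-151-3p (0.410). All 5 shared its small shift between the replicate numbers, of 0.20 to 0.61 cycles, which an SD over all 12 arrays favours by its making. Those closest to miR-425 were miR-193b (0.298), miR-126-3p (0.308), miR-484 (0.319), miR-487b (0.343) and miR-34b-3p (0.356), with shifts from 0.78 to 1.17 cycles. The lists had no miR in common, which the unequal shifts of miR-191 and miR-425 favour in the same way. About the mean of each number the nearest of miR-191 were miR-574-3p (0.206), miR-193b (0.210) and miR-24 (0.211), and those of miR-425 were miR-193b (0.237) and miR-214 (0.256), with miR-191 next.

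Other pairs of miRs listed as made from a shared transcript give a rough scale for this. Whether the members of each pair are made only from that transcript was not checked here. Of 22 such pairs listed, 11 had both members in the table. About the mean of each number their SD of the Ct difference had a median of 0.574 cycles, and miR-191 with miR-425 was in place 2 of 12, after miR-143 with miR-145 (0.217), which are known from smooth muscle. The pair farthest apart was miR-106b with miR-93 (1.50). Of the 11781 pairs that can be formed from the 154 miRs, 2.24% were tighter than miR-191 with miR-425. Over the 12 arrays, the shift between numbers included, 15.7% were tighter. The place among the listed pairs was 3 of 12, after miR-182 with miR-183 (0.361), a cluster known from sensory neurons, and miR-199a-3p with miR-214 (0.446). An unequal shift between the numbers was thus seen in other listed pairs too, and that of miR-191 with miR-425 was in place 7 of 12 by size. The largest was 3.70 cycles, for miR-127 with miR-433.

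**Figure D3:**
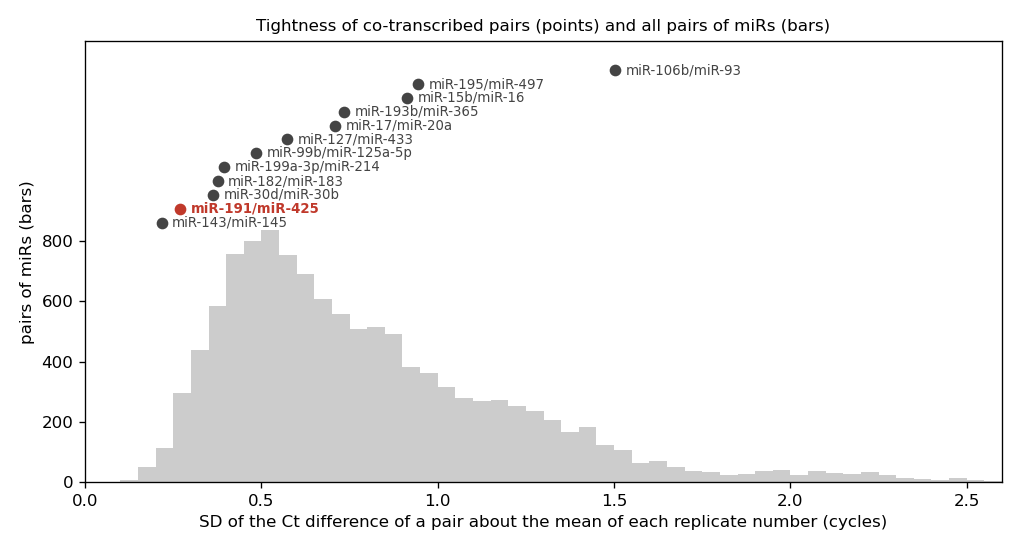
SD of the Ct difference of a pair of miRs about the mean of each replicate number, in cycles, as a histogram of the 11781 pairs of the 154 miRs (bars, number of pairs) and for the 12 pairs listed as co-transcribed (points, whose height only separates their names). MiR-191 with miR-425, in red at 0.270, is at the left edge of the bars beside miR-143 with miR-145 at 0.217.

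For comparisons between groups the level of a miR was taken as −ΔCt, the mean Ct of MammU6, snoRNA135 and U87 minus the Ct of the miR, so that 1 unit is a factor of 2 and a higher value is more miR. A lower level in a whole DRG can come from fewer cells that make the miR or from less of it per cell, which cannot be told apart here. The levels of miR-191 in L3-DRG of Sham rats were 2.99 in replicate 1 and 1.39 in replicate 2, and in L4-DRG 2.77 and 1.16. In Sural-SNI they were 2.87 and 1.80 in L3-DRG and 2.32 and 1.44 in L4-DRG. In Tibial-SNI they were 3.69 and 1.45 in L3-DRG and 3.39 and 2.04 in L4-DRG. Every array of replicate 1 was above every array of replicate 2, by 1.46 in the mean, which is nearly the shift of the reference RNAs themselves (1.53 cycles), since the Ct of miR-191 was close to level.

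The levels of miR-425 in Sham were −3.32 and −4.05 in L3-DRG and −3.78 and −3.89 in L4-DRG. In Sural-SNI they were −3.78 and −3.72 in L3-DRG and −3.65 and −3.45 in L4-DRG. In Tibial-SNI they were −2.53 and −3.60 in L3-DRG and −2.89 and −3.53 in L4-DRG. The numbers overlapped here and differed by 0.38 in the mean, and the highest levels were those of replicate 1 of Tibial-SNI.

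Within replicate 1 the levels of the pair rose and fell together (Pearson r = 0.88, Spearman rho = 0.77, n = 6 arrays), and without the 2 arrays farthest from the median of miR-191 r was 0.96. Within replicate 2 the values were r = 0.46 and rho = 0.54 (n = 6), and r = 0.48 without the 2 farthest arrays. Relative to the mean of all miRs in place of the 3 reference RNAs, r was 0.85 in replicate 1 and 0.52 in replicate 2, where it turned to −0.44 without the 2 farthest arrays, so in replicate 2 it rests on those arrays. Which number had the higher r depended on the reference: with snoRNA135 alone r was 0.90 in replicate 1 and 0.93 in replicate 2, and with snoRNA135 and U87 it was 0.90 and 0.79. Among the 153 other miRs, miR-425 was in place 10 by its r with miR-191 in replicate 1 and in place 35 in replicate 2. These r share the reference RNAs of each array and arrays that may share a rat, and they are given without a p. No r was taken over all 12 arrays, which fall into the separate clusters of the replicate numbers.

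**Figure D4:**
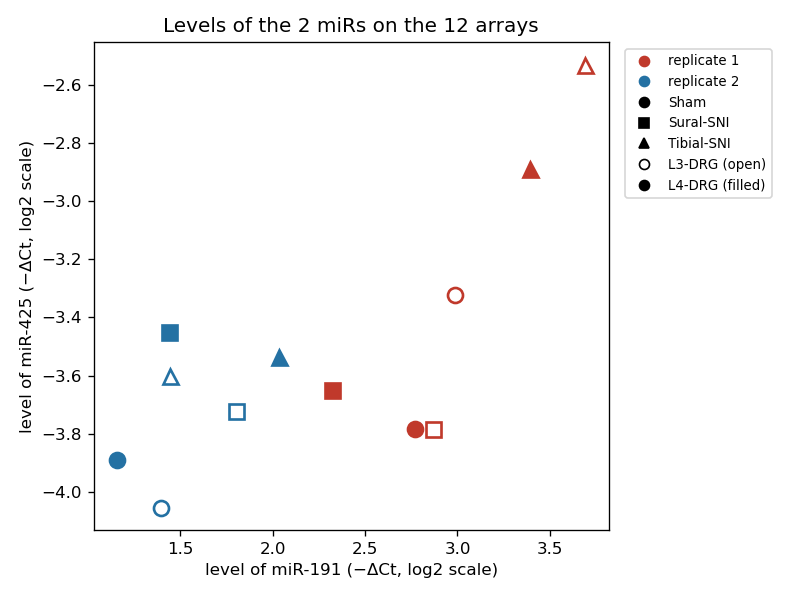
Level of miR-425 against level of miR-191 (−ΔCt on the log2 scale) on the 12 arrays, with replicate 1 in red and replicate 2 in blue, the surgery as the shape, L3-DRG open and L4-DRG filled. The replicate numbers form separate clusters along miR-191, and the arrays highest for both miRs are those of replicate 1 of Tibial-SNI.

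Both miRs had their highest mean level in Tibial-SNI. For miR-191 the means were 2.08 ± 0.93 (SD, n = 4) in Sham, 2.11 ± 0.62 in Sural-SNI and 2.64 ± 1.07 in Tibial-SNI. For miR-425 they were −3.76 ± 0.31, −3.65 ± 0.15 and −3.14 ± 0.52. The order Sham, Sural-SNI, Tibial-SNI was the same in both, and for both members Sham and Sural-SNI lay within each other's SD. For miR-191 the step from Sural-SNI to Tibial-SNI was also within the SD of either group.

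Against its matched Sham array (same ganglion and number), miR-191 in Tibial-SNI had a log2(fold change) of 0.70 and 0.05 in L3-DRG (replicates 1 and 2) and 0.62 and 0.88 in L4-DRG, or 0.57 ± 0.36 (SD, n = 4). MiR-425 had 0.79 and 0.45 in L3-DRG and 0.89 and 0.35 in L4-DRG, or 0.62 ± 0.26. Both were above Sham in 4 of 4 arrays, a pattern that 28 of the 154 miRs (18.2%) showed. The means are a 1.48-fold higher level for miR-191 and 1.54-fold for miR-425, where the median of all miRs was 0.23 on the log2 scale. In limma over the 12 arrays, with the DRG level in the fit, the Tibial-SNI difference of miR-191 had a 95% interval from −0.83 to 1.96 and an adjusted p of 0.997. That of miR-425 ran from −0.10 to 1.35, also with an adjusted p of 0.997, and had the seventh smallest unadjusted p of the 154 miRs in limma (0.0837). Neither passed the threshold of 0.05, and 0 of the 154 miRs did (0%), with 1 at an unadjusted p under 0.05.

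The result of this comparison is not independent of how the pair was chosen, since the Tibial-SNI arrays also entered the contrast on which miR-191 was picked. Both ways of tying arrays together kept the estimates and moved their errors in opposite directions. With the replicate number as a block the 95% interval was 0.01 to 1.12 for miR-191 and 0.07 to 1.17 for miR-425, with an adjusted p of 0.385 and 0.384 in limma. With a correlation (estimated at 0.67) between both ganglia of a surgery and number, the interval was −1.05 to 2.18 for miR-191 and −0.43 to 1.68 for miR-425, with an adjusted p of 0.998 each in limma. An unadjusted p under 0.05 was seen for 17 of the 154 miRs with the block, the pair among them, and for 0 with the correlation, and 0 passed after adjustment in either.

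The difference from Sham was made up of the Ct of the members and the Ct of the reference RNAs. From Sham to Tibial-SNI the Ct of miR-191 changed by −0.15 cycles and that of miR-425 by −0.21, while the mean Ct of the 3 reference RNAs changed by 0.41 and the mean of all miRs by 0.18. In replicate 1 the Ct of miR-191 and miR-425 changed by 0.21 and 0.03, and the reference RNAs by 0.87. In replicate 2 the members changed by −0.51 and −0.45 and the reference RNAs by −0.05. The higher level thus stood on later reference RNAs in replicate 1 and on earlier members in replicate 2, and whether the reference RNAs were altered by the injury was not tested. Against the mean of all miRs in place of the 3 reference RNAs, the difference from Sham was 0.33 for miR-191 and 0.39 for miR-425. Leaving out a single array moved that of miR-191 between 0.21 (without L3-DRG Tibial-SNI replicate 1) and 1.05 (without L3-DRG Tibial-SNI replicate 2), and that of miR-425 between 0.40 and 0.80 without the same arrays.

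In Sural-SNI neither miR had a common direction. Against the matched Sham array miR-191 had a log2(fold change) of −0.12 and 0.41 in L3-DRG and −0.45 and 0.28 in L4-DRG, or 0.03 ± 0.39 (SD, n = 4). MiR-425 had −0.46 and 0.33 in L3-DRG and 0.13 and 0.44 in L4-DRG, or 0.11 ± 0.40. For miR-191 the arrays of replicate 1 were below 0 and those of replicate 2 above it. The limma interval of Sural-SNI minus Sham ran from −1.37 to 1.43 for miR-191 and from −0.61 to 0.83 for miR-425, each with an adjusted p of 0.9997, and 0 of the 154 miRs passed (0%), with 0 at an unadjusted p under 0.05 as well and 11 with the replicate block. With the block the intervals were −0.53 to 0.59 for miR-191 and −0.44 to 0.66 for miR-425. The Tibial-SNI and Sural-SNI values share their Sham arrays and are set side by side for that reason.

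**Figure D5:**
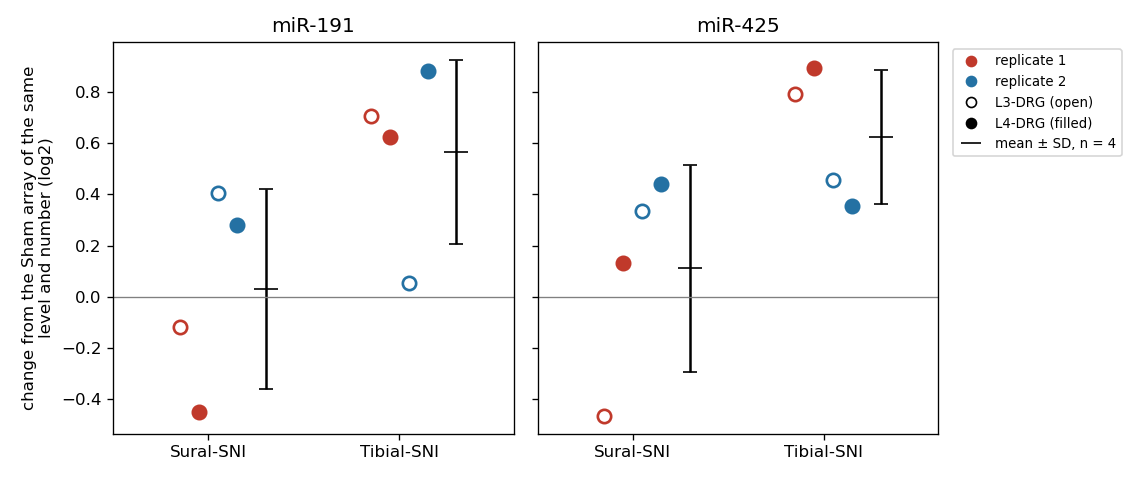
Change in level from the matched Sham array (same ganglion and replicate number), on the log2 scale, for miR-191 (left) and miR-425 (right) in Sural-SNI and Tibial-SNI, with the mean and SD of the 4 arrays in black. All 4 Tibial-SNI arrays are above 0 for both miRs (means 0.57 and 0.62), and the Sural-SNI arrays lie on both sides of 0 (means 0.03 and 0.11).

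Set directly against each other, Tibial-SNI was above Sural-SNI by 0.54 in the level of miR-191 and by 0.51 in that of miR-425, places 17 and 18 from the highest of the 154 miRs, whose median was 0.10. This is the contrast that chose miR-191. The study also reported miR-191 higher in Tibial-SNI than in Sural-SNI by qPCR, which is not part of the data used here. In matched pairs of arrays miR-191 differed by 0.82 and −0.35 in L3-DRG and by 1.07 and 0.60 in L4-DRG, and miR-425 by 1.25 and 0.12 in L3-DRG and by 0.76 and −0.09 in L4-DRG. Each was higher in 3 of 4 pairs. Within replicate 1 the difference was 0.95 for miR-191 and 1.01 for miR-425, and within replicate 2 it was 0.12 and 0.02. The Ct of the reference RNAs was 1.26 cycles later in Tibial-SNI than in Sural-SNI in replicate 1 and 0.13 in replicate 2. The Ct of miR-191 and miR-425 was later in Tibial-SNI too, by 0.32 and 0.26 cycles in replicate 1. Over all arrays it was later by 0.16 and 0.18 cycles, next to 0.69 for the reference RNAs and 0.61 for the mean of all miRs. The higher levels in Tibial-SNI thus stood on later reference RNAs and not on earlier members, and why the references were later was not tested. The log2 ratio of the pair differed by 0.02 between the injury models, in pairs by −0.43 and −0.47 in L3-DRG and by 0.31 and 0.69 in L4-DRG.

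Between the DRG levels the pair differed little. From L3-DRG to L4-DRG of the same surgery and number the level of miR-191 was lower in 5 of 6 pairs, with changes from −0.55 to 0.59, and that of miR-425 in 2 of 6, from −0.46 to 0.27. In raw Ct the L4-DRG was earlier in 6 of 6 pairs for miR-191 (by −0.37 ± 0.20 cycles, SD, n = 6), as the mean of all miRs was earlier too (−0.52). The limma difference in level was −0.18 for miR-191 (95% interval from −1.32 to 0.96) and −0.03 for miR-425 (−0.62 to 0.56), with an adjusted p of 0.987 each, and 0 of the 154 miRs passed (0%), with 3 at an unadjusted p under 0.05. Under the block the intervals were −0.63 to 0.28 and −0.48 to 0.42, and 11 miRs had an unadjusted p under 0.05 and 0 an adjusted one. In both injury models the study found damaged neurons in L4-DRG and none in L3-DRG, by a tracer put on the cut branches. The effect of nerve injury, as the mean of both SNI groups minus Sham, in L4-DRG minus that in L3-DRG was 0.07 for miR-191 and 0.18 for miR-425. In the limma fit with an interaction term the intervals ran from −2.72 to 2.87 and from −1.27 to 1.62, with an adjusted p of 0.995 each, and 0 of the 154 miRs passed here too (0%), with 2 at an unadjusted p under 0.05. With the block the intervals were −0.93 to 1.08 for miR-191 and −0.86 to 1.22 for miR-425, and 15 miRs had an unadjusted p under 0.05 and 0 an adjusted one.

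MiR-191 and miR-425 are both on a list of 9 miRs in common use as reference miRs, of which 8 were in the table. Taken against the mean of all 154 miRs, the level of miR-425 had an SD of 0.620 over the 12 arrays, in place 63 from the steadiest, and that of miR-191 an SD of 1.14, in place 125, where the median miR had 0.705. On the same list miR-24 had 0.324, miR-16 had 0.429 and miR-93 had 1.46. About the mean of each replicate number miR-191 had 0.376 and miR-425 0.353, near the median of 0.422. The large SD of miR-191 was thus mostly its small shift between the numbers, where most miRs shifted far.

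Markers of cell types that a DRG holds or touches were read on the same arrays. The sensory neuron miRs in the table, miR-182 and miR-183, were read at mean Ct of 23.5 and 27.6 on arrays of whole DRG, and miR-124 and miR-96 of that list were not analysed here. The level of a list is the log2 of its summed members, so the most abundant member weighs most. From Sham to Tibial-SNI, where the pair had its highest means, the level of these neuronal miRs changed by −0.13, that of the 3 skeletal muscle miRs by 0.59, of the 2 of vascular smooth muscle by 0.70, of the 2 of endothelium by 0.25, of the 4 of leukocytes by 0.34 and of the 1 of red blood cells (miR-486) by 0.23. From Sural-SNI to Tibial-SNI the changes were 0.26, 1.05, 0.91, 0.42, 0.19 and −0.14 in the same order, next to 0.54 for miR-191 and 0.51 for miR-425. Members of the neuron and leukocyte lists parted here. MiR-182 changed by 0.29 and miR-183 by −0.16. MiR-223 changed by 0.32, miR-150 by 0.17, miR-155 by 0.09 and miR-142-3p by −0.51. All members of the muscle and endothelium lists were higher in Tibial-SNI. Of the muscle miRs, miR-133b, miR-143 and miR-145 were themselves picked on the contrast of Tibial-SNI with Sural-SNI on these arrays. The miR-1 of the list is the assay mmu-miR-1, which changed by 0.57 in that contrast. The study lists its picked miR-1 under the rat name, and the assay rno-miR-1, with a change of 1.43, was not in the list. The rats had been perfused to lower the miRs of blood.

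The arrays of the groups overlapped in the muscle markers. The smooth muscle level lay between −1.99 and 0.18 in Sham, between −2.23 and 0.50 in Sural-SNI and between −0.97 and 0.92 in Tibial-SNI. That of skeletal muscle lay between 0.45 and 1.63, between −0.30 and 1.27 and between −0.16 and 4.20, and its highest array was L4-DRG Tibial-SNI replicate 1. Without that array, left out after the values had been seen, the skeletal muscle level in Tibial-SNI minus Sham was −0.27 and in Tibial-SNI minus Sural-SNI 0.19. For those contrasts miR-191 had 0.25 and 0.29 and miR-425 had 0.52 and 0.43. The values of the pair against Sham are limma estimates with the DRG level in the fit. The other values are plain differences of group means, so those against Sham are not the same measure. The smooth muscle difference from Sham was between 0.31 and 1.04 without any single array, lowest without L4-DRG Sham replicate 1 and highest without L3-DRG Sham replicate 2. The part of these markers in the levels of the pair was not tested. Between the replicate numbers the smooth muscle miRs were lower by 1.82 in replicate 1 and those of skeletal muscle higher by 1.72, next to 1.46 for miR-191 and 0.38 for miR-425.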

How the data were processed

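RNA of DRG was read on TaqMan rodent microRNA cards (Card A), with 40 cycles. The authors deposited the Ct of each well without normalization, a score in cycles, for miRs detected on all 12 arrays: 160 wells, of which 6 were reference wells (4 of MammU6) and 154 miRs. They also deposited fold changes of each SNI array against Sham, a ratio that was not used here.

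The level was −ΔCt against the mean Ct of MammU6 (its wells averaged first), snoRNA135 and U87, the references of the study. It was fitted with limma 3.58.1 in R 4.3.3 (two-sided, Benjamini-Hochberg over the 154 miRs, threshold 0.05) on surgery and DRG level, with their interaction for the difference between levels. Fits were tested on simulated data with independent noise and planted changes larger than the differences of the pair. Those runs do not tell how well differences of the size seen here are found. Ratios, SDs and correlations were computed with Python 3.11.15 and carry no p. Ct values hold no counts, so the number of arrays, 12 with 4 per surgery, limits the precision.

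The labels give each array its group and number. Deviations from group means had r between 0.64 and 0.79 across miRs for the 15 pairs of groups with the same number. The numbers were taken to pair the arrays for that reason, and intervals with the number as a block are given for each test. The r between −0.79 and −0.64 for the 30 pairs with different numbers add nothing to this. With a single array of each number in a group, deviations from its mean are equal and opposite, which fixes these r as the negatives of the others. The alternatives were other references, a Ct limit of 35, the block, each number alone, an estimated correlation between both ganglia of a surgery and number, no DRG level in the fit, a variance trend and leaving out each array, and for the marker lists, added after the data had been seen, leaving out each array as well. The members, the lists of co-transcribed pairs, reference miRs and markers, and the miRs named (members, their nearest partners and list members) were chosen with earlier results of these data known.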

Additional observations from a re-analysis of the deposited data

Results flagged for a closer look

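In 3 cases every array pair moved one way in one part of the design and the opposite way in the other, out of 18 contrasts compared between DRG levels or replicate numbers. None of these differences was tested, and 0 of 35 groups of arrays held an outlying array. With so few pairs in each part, such cases can also arise by chance, and how many to expect was not computed.

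The level of miR-191 in Sural-SNI minus Sham was −0.28 in replicate 1, where both pairs were below 0, and 0.34 in replicate 2, where both were above it. The log2 ratio of miR-191 to miR-425 in Tibial-SNI minus Sural-SNI was −0.45 in L3-DRG and 0.50 in L4-DRG, with the 2 pairs of each level on the same side. The ratio in Sural-SNI minus Sham was 0.21 in L3-DRG and −0.37 in L4-DRG, again with both pairs of a level on the same side.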

How the results depend on the processing

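Of the 17 results for the pair, 8 were tested, and under the alternatives none had an adjusted p below 0.384 in limma (highest 0.99997). The replicate block changed no call, and gave 0.270 for the SD of log2(miR-191/miR-425) in place of 0.619. The difference of both miRs between Tibial-SNI and Sham, and between Tibial-SNI and Sural-SNI, was above 0 under every alternative. The alternatives reuse the arrays on which miR-191 was picked, so the constant sign is no separate support. The median of all miRs in Tibial-SNI minus Sham was itself 0.23 in the main fit. Within replicate 1 and replicate 2 alone, Tibial-SNI minus Sural-SNI was 1.01 and 0.017 for miR-425, and the SD of the ratio was 0.245 and 0.293. With snoRNA135 alone as the reference the correlation of the pair was 0.93 in replicate 2 and 0.90 in replicate 1, which turned the order of the numbers.

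Differences near 0 changed sign with the setting, and the cause was not tested. Sural-SNI minus Sham turned to −0.040 for miR-191 with snoRNA135 alone, to −0.0032 with snoRNA135 and U87, to −0.12 with the mean of all miRs and to −0.28 in replicate 1 alone, and for miR-425 to −0.043 with the mean of all miRs and −0.17 in replicate 1 alone. L4-DRG minus L3-DRG turned to 0.0047 for miR-191 and 0.15 for miR-425 with MammU6 alone, and to 0.17 for miR-425 in replicate 2 alone. The injury effect in L4-DRG minus that in L3-DRG turned to −0.083 for miR-191 with MammU6 alone and −0.21 in replicate 1 alone.

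Leaving out each array in turn, the values of miR-191 ran from −0.28 to 0.34 for Sural-SNI minus Sham, from −0.50 to 0.060 for L4-DRG minus L3-DRG and from −0.73 to 0.88 for the injury effect between the DRG levels. Those of miR-425 ran from −0.0046 to 0.27, from −0.15 to 0.12 and from −0.19 to 0.54. The correlation ran from 0.76 to 0.98 in replicate 1 and from 0.29 to 0.67 in replicate 2. The log2 ratio, within its spread throughout, ran from −0.32 to 0.19 for Tibial-SNI minus Sham, from −0.38 to 0.21 for Sural-SNI minus Sham, from −0.27 to 0.32 for Tibial-SNI minus Sural-SNI and from −0.32 to 0.02 for L4-DRG minus L3-DRG.

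With 2 arrays per surgery and DRG level, differences of the size seen here did not pass the test with or without the block. The replicate numbers parted the log2 ratio and the level of miR-191 more than surgery or DRG level did. That was not so for the level of miR-425, with 0.38 between the numbers and 0.62 for Tibial-SNI minus Sham. Ct values carry no depth.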
